A study of Mus musculus with 6 samples.

Results

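The integrated stress response and the unfolded protein response were examined here as a list of 43 genes, taken by symbol from the 43629 mouse gene IDs of the deposited count table. All 43 had enough reads to be tested, among 13445 tested genes. The 6 libraries, 3 in each of 2 groups, hold poly-A RNA of M1 cells, a line of mouse neuroblastoma. In one group a doxycycline-induced short hairpin RNA was non-targeting (shNT, labelled WT), and in the other it was directed against Igf2bp1 (shIGF2BP1, labelled IGF2BP1 knockdown). Both groups had been given doxycycline at 4 to 6 µg/ml for 6 days. The labels name 1 hairpin against Igf2bp1, do not say whether the cells were a clone or which promoter drives the hairpin, and do not state if each replicate was its own culture. The p-values therefore cover only the sample-to-sample spread, some of which may be technical.

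Cells meet shortage of amino acids and misfolded protein with linked programmes. In the integrated stress response, kinases such as Perk (gene Eif2ak3) phosphorylate the initiation factor eIF2, most translation slows, and the mRNA of the transcription factor Atf4 is translated more. Atf4, often with a C/EBP partner, then switches on genes that make and import amino acids. In the unfolded protein response, the endoplasmic reticulum (ER) sensors Ire1 (gene Ern1), Perk and Atf6 act in parallel: Ire1 splices Xbp1 mRNA, Atf6 is cut to release a transcription factor, and both raise chaperones and the machinery that removes misfolded proteins. Secretory and fast-growing tumour cells are known to lean on both programmes. The 43 genes were split by role into 16 regulators (3 sensors, 8 transcription factors, 5 effectors and feedback genes), 14 Atf4 amino acid genes (8 of synthesis, 6 transporters) and 13 Xbp1 and Atf6 genes of the ER (9 of folding, 4 of degradation). Counts per gene hold both forms of Xbp1 mRNA together and say nothing of Atf4 translation.

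The promoters of the genes are shown first, because the 2 arms are known for different DNA elements, one read by Atf4 and one by Atf6 and Xbp1. RefSeq promoter windows on GRCm38.p6, from 250 bases before to 50 after the start, were matched for 39 of the 43 genes (42 windows); Slc7a3, Manf, Slc7a5 and Atf6 had no entry. Both strands were searched for TGATGNAA, the core of the C/EBP-ATF response element that Atf4 binds, and for the ER stress response element (ERSE), CCAAT and CCACG with 9 bases between them, that Atf6 and Xbp1 read. The related ERSE-II (ATTGG and CCACG with 1 base between them) and the unfolded protein response element TGACGTGG were searched too. In the stretches below, printed 5′ to 3′ on the strand of the gene, capitals mark the matches. The first 7 carry the Atf4 core, the next 6 the ERSE, and Herpud1 a match to the Atf4 core and an ERSE-II.
Asns, chr6:7693205-7693252, minus strand: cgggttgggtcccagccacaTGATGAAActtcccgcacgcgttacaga
Slc7a11, chr3:50443633-50443699, minus strand: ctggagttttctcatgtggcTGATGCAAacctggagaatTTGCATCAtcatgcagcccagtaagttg
Pycr1, chr11:120643824-120643871, minus strand: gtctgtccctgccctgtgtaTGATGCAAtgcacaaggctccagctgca
Chac1, chr2:119351029-119351076, plus strand: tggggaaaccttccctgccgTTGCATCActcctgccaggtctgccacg
Trib3, chr2:152344019-152344066, minus strand: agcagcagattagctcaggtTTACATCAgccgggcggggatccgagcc
Nupr1, chr7:126625553-126625600, minus strand: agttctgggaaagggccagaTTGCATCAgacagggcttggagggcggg
Atf3, chr1:191183416-191183463, minus strand: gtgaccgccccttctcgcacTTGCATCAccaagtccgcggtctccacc
Hspa5, chr2:34772005-34772063, plus strand: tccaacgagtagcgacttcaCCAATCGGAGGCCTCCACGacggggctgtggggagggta
Hsp90b1, chr10:86705513-86705676, minus strand: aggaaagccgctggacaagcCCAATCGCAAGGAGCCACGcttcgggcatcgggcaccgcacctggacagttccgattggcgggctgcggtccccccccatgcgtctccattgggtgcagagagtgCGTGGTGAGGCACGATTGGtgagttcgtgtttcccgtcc
Pdia6, chr12:17266471-17266529, plus strand: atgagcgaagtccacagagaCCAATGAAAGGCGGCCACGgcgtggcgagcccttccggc
Dnajc3, chr14:118937807-118937865, plus strand: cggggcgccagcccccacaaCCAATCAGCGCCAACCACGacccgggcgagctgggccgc
Creld2, chr15:88819500-88819558, plus strand: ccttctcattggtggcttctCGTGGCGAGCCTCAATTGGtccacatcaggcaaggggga
Syvn1, chr19:6046512-6046570, plus strand: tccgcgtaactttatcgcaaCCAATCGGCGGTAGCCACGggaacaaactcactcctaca
Herpud1, chr8:94386297-94386407, plus strand: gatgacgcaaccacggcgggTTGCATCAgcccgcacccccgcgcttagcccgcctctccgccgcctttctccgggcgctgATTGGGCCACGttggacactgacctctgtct

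The Atf4 core was found in 8 of the 39 genes (20.5%), against 4.51% of all 27025 genes with a promoter window of the same length. By window, it was in 3.97% of all 32851. It stood in 4 of 15 regulators (Atf3, Chac1, Nupr1 and Trib3), in 3 of 12 amino acid genes (Asns, Pycr1 and Slc7a11) and in 1 of 12 ER genes (Herpud1). Slc7a11 had it on both strands, at -66 to -59 and at -47 to -40 from the start, and in Trib3 it lay after the start, at 15 to 22. The ERSE was found in 6 of 12 ER genes (50%) and in 0 of 15 regulators and 0 of 12 amino acid genes. It was in 0.137% of all genes and 0.119% of all windows. Hsp90b1, the ER form of Hsp90, held it on each strand, at -212 to -194 and at -107 to -89, and Hspa5 held it at -65 to -47. The ERSE-II stood in Herpud1 alone of the list, at -52 to -42, and in 0.0444% of all genes (0.0365% of windows). TGACGTGG stood in none of the 39 and in 0.714% of all genes (0.676% of windows). The matches of 1 motif did not overlap those of another in these genes. A match is a run of letters and not evidence of binding, and genes of this list are textbook examples of these elements.

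Igf2bp1 itself, the target of the hairpin, was at 4.15 ± 2.56 CPM (SD, n = 3; CPM is the count scaled to the library total) in shNT and at 4.96 ± 5.58 CPM in the libraries labelled shIGF2BP1, so the counts do not show the knockdown that the label gives. The shNT libraries held 37, 175 and 201 counts of Igf2bp1 and the libraries labelled shIGF2BP1 held 67, 35 and 311, so the groups overlapped. The log2 fold change was 0.25 ± 0.79 (SE, edgeR adjusted p = 0.966), and an exact permutation test (two-sided) on mean log2 CPM gave p = 0.9, where 3 against 3 cannot give less than 0.1. Directions below therefore compare libraries by their labels. Totals ran from 25119655 to 35373076 counts. The TMM factors, which scale each library, were 0.963 to 0.991 in shNT and 1.002 to 1.04 in the libraries labelled shIGF2BP1, so they moved with the group, and with no factors at all the median log2 fold change of the 43 genes was -0.37 in place of -0.44. Of 12 markers of sympathetic neuroblastoma, Th, Dbh and Chga had 0 counts in all libraries, while Hand2, Gata3, Isl1 and Mycn were expressed. Among 8 leukocyte markers, Cd3e and Adgre1 were at 0 and Ptprc had 1 count in 1 library. The summed level of that list was 7.81 to 14.99 CPM in shNT and 4.16 to 6.18 CPM in the libraries labelled shIGF2BP1, most of it Cd68, and its part in the results was not tested. Cd68 was lower in all libraries labelled shIGF2BP1 (log2 fold change -1.52, edgeR adjusted p = 0.403, DESeq2 adjusted p = 0.0081), whereas Fcer1g, at 0.00 to 0.176 CPM in shNT, was higher in all of them at 0.364 to 0.567 CPM (edgeR adjusted p = 0.616). The summed endothelial (37.1 to 53.8 against 31.1 to 73.7 CPM) and fibroblast lists (375 to 462 against 290.1 to 578 CPM) overlapped between groups, but their genes went both ways. Before adjustment, Kdr (log2 fold change -1.95), Pdgfra (-0.69) and Pdgfrb (-0.87) had an edgeR p under 0.05 in one direction. Postn, at 0.00 to 0.235 CPM in shNT against 0.312 to 3.32 CPM, had one in the other, and edgeR called 0 of these 4 after adjustment (the smallest edgeR adjusted p = 0.524). These marker genes are named after their values were seen. In bulk RNA, fewer cells of a type and less RNA per cell cannot be told apart.

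None of the 43 genes passed the test. The smallest edgeR adjusted p was 0.497 (Slc7a5), DESeq2 and limma-voom called 0 members as well, and 0.0223% of all tested genes were called by edgeR and 0.61% by DESeq2. Before adjustment, 17 of the 43 genes had an edgeR p under 0.05, all with less mRNA in the libraries labelled shIGF2BP1, and 0 had one in the other direction; DESeq2 and limma-voom counted 16 and 14. Over all tested genes, 3.99% had such a p in that direction and 3.17% in the other. The log2 fold change was below 0 in 36 of the 43 genes (83.7%), against 51.5% of all tested genes, with a median of -0.44 against -0.01. In 10 genes (23.3%) every shNT library lay above every library labelled shIGF2BP1, against 5.59% of tested genes, and in 0 the reverse held, against 6.06%. The list was proposed with these data in view, so these counts describe it and are no independent support for a direction. The count of 17 was 6 without shIGF2BP1 replicate 1, 11 without shIGF2BP1 replicate 2 and 9 without shNT replicate 3, and 11 with library size as the only scaling.

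**Figure D1:**
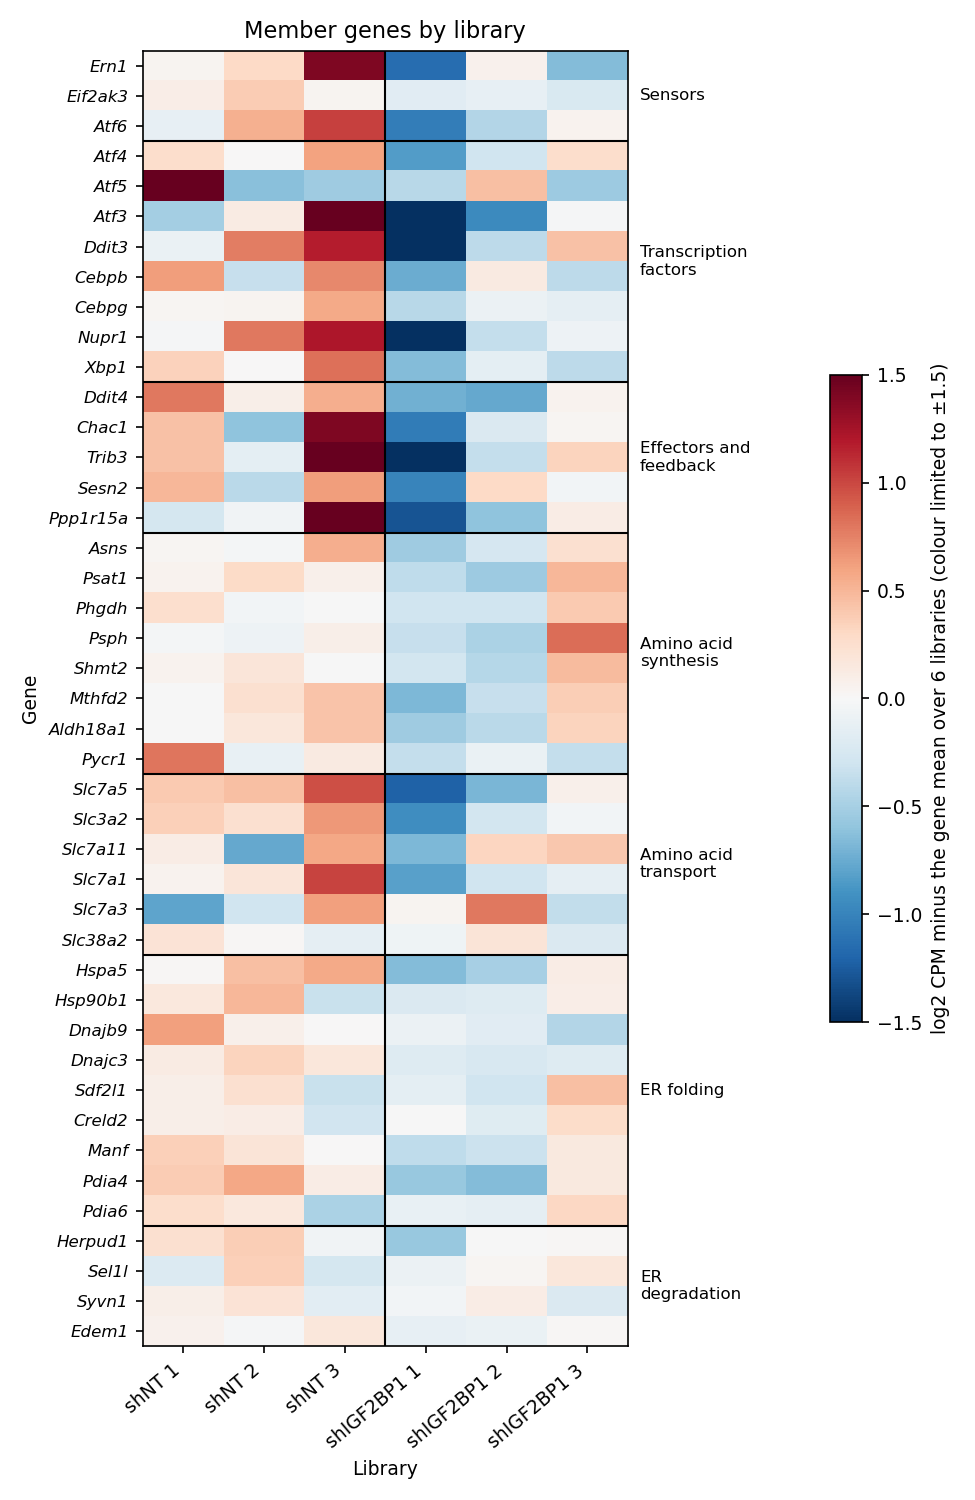
Colour shows, for each of the 43 genes (rows, grouped by role) in each of the 6 libraries (columns), log2 CPM minus the mean of that gene over the libraries. The regulators are darkest red in shNT replicate 3 and darkest blue in shIGF2BP1 replicate 1. Of the 8 amino acid synthesis genes, 4 are highest in shIGF2BP1 replicate 3 (50%, against 12.0% of tested genes).

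The 3 ER sensors differed in level and in spread. Per length, Ern1 had 38.4, Atf6 22.6 and Eif2ak3 6.83 RPKM (CPM per kilobase of exon) on average in shNT. The length counts all annotated exons of a gene, used or not, so RPKM is only roughly comparable between genes. Ern1 (ENSMUSG00000020715, chr11:106394650-106487852), which encodes the kinase and nuclease Ire1, had 198, 236 and 507 CPM in shNT replicates 1 to 3 and 87.0, 201 and 123 CPM in shIGF2BP1 replicates 1 to 3. The group ranges overlapped by a little, since shIGF2BP1 replicate 2 reached the lowest shNT library, and shNT replicate 3 stood far above the other 5. The log2 fold change was -1.19 ± 0.39 (SE, edgeR adjusted p = 0.574), and -0.66 without shNT replicate 3. Atf6 (ENSMUSG00000026663, chr1:170704674-170867771), the sensor that is itself a transcription factor, had 131, 206 and 289.8 CPM in shNT against 69.4, 105 and 149 CPM in the libraries labelled shIGF2BP1. Only the highest of the latter reached into the shNT range, and the log2 fold change was -0.96 ± 0.33 (edgeR adjusted p = 0.606). Eif2ak3 (ENSMUSG00000031668, chr6:70844515-70905245), which encodes Perk, had 38.9, 47.2 and 37.4 CPM against 32.3, 33.5 and 31.2 CPM. Its groups did not overlap, but the log2 fold change was the smallest of the sensors at -0.35 ± 0.20 (edgeR adjusted p = 0.778).

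All 8 transcription factors had a log2 fold change below 0, from -2.31 to -0.44, against 51.5% of tested genes below 0. Before adjustment, 4 of them had an edgeR p under 0.05 (edgeR adjusted p of 0.524 or more), against 3.99% of tested genes in that direction. DESeq2 and limma-voom counted 5 and 3 of these factors. Atf4 (ENSMUSG00000042406, chr15:80255184-80257541), the main effector of the integrated stress response, was the most abundant of them per length, at 296 RPKM in shNT. It had 676, 563 and 852 CPM in shNT against 313, 456 and 673 CPM in the libraries labelled shIGF2BP1. Replicate 3 of the latter lay above shNT replicate 2, and the log2 fold change of -0.54 ± 0.31 (-0.30 without shIGF2BP1 replicate 1, -0.86 without its replicate 3) had a 95% interval from -1.21 to 0.14 (edgeR adjusted p = 0.778). Ddit3 (ENSMUSG00000025408, chr10:127290774-127296288), whose product Chop is tied to cell death under lasting stress, had 85.4, 156 and 206 CPM in shNT against 24.4, 69.7 and 123 CPM in the other group. The groups overlapped and shIGF2BP1 replicate 1 was lowest by a wide margin, with a log2 fold change of -1.04 ± 0.49 that was -0.63 without that library (edgeR adjusted p = 0.722). Exons of Ddit3 overlap those of Mars on the opposite strand, so its counts are uncertain.

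Nupr1 and Xbp1 were the transcription factors whose groups were farthest apart relative to their spread. Nupr1 (ENSMUSG00000030717, chr7:126623249-126630861), a small chromatin protein raised by stress, had 57.0, 99.9 and 134 CPM in shNT against 19.9, 45.3 and 55.1 CPM in the libraries labelled shIGF2BP1. Its groups did not overlap, although shNT replicate 1 and shIGF2BP1 replicate 3 lay close together, and the log2 fold change was -1.27 ± 0.38 (edgeR adjusted p = 0.524). Xbp1 (ENSMUSG00000020484, chr11:5520659-5525893), the factor that Ire1 splicing activates, had 185, 147 and 259 CPM against 93.1, 132 and 111 CPM. Here too the groups did not overlap, and the log2 fold change was -0.81 ± 0.25 (edgeR adjusted p = 0.524). The C/EBP partners of Atf4 showed smaller differences, with log2 fold changes of -0.69 for Cebpb and -0.44 for Cebpg.

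The values of Atf3 and Atf5 rested on single libraries. Both are given in full after their values were seen. Atf3, a stress-induced repressor and activator that also answers growth signals, had 54.8 CPM in shNT replicate 3 and 5.19 and 8.13 CPM in the other shNT libraries, against 2.55, 3.80 and 7.36 CPM. Its log2 fold change of -2.31 was -0.54 without shNT replicate 3. Atf5, a relative of Atf4 under the same translational control, had 515 CPM in shNT replicate 1 and 105 and 112 CPM in the other shNT libraries, against 121, 221 and 111 CPM. Its log2 fold change of -0.69 was 0.48 without shNT replicate 1.

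The 5 effectors and feedback genes had log2 fold changes from -1.501 to -0.45, and 4 an edgeR p under 0.05 before adjustment (edgeR adjusted p of 0.524 or more). DESeq2 and limma-voom counted only 2 and 2 of them. Over all tested genes, 3.99% had such an edgeR p in that direction. Ddit4 (ENSMUSG00000020108, chr10:59949669-59951834), which restrains the growth kinase complex mTORC1, had 101, 62.1 and 85.5 CPM in shNT against 35.3, 34.3 and 60.8 CPM in the libraries labelled shIGF2BP1. Its groups just failed to touch, and its log2 fold change of -0.93 ± 0.28 (edgeR adjusted p = 0.524) stayed between -1.26 and -0.77 whichever library was left out. Trib3 (ENSMUSG00000032715, chr2:152337422-152344032), a pseudokinase that feeds back on Atf4, had 330.1, 219 and 781 CPM against 63.3, 190.2 and 307 CPM. The groups overlapped, with shNT replicate 3 high and shIGF2BP1 replicate 1 low, and the log2 fold change of -1.25 was -0.56 with shNT replicate 3 left out (edgeR adjusted p = 0.692 with all libraries). Ppp1r15a (ENSMUSG00000040435, chr7:45522916-45526268), the phosphatase subunit Gadd34 that restores translation, had 59.8, 69.0 and 308 CPM against 29.3, 47.3 and 77.7 CPM. The groups overlapped, shNT replicate 3 alone stood apart, and without it the log2 fold change of -1.501 was -0.32. Chac1 (ENSMUSG00000027313, chr2:119351229-119354381), which breaks down glutathione, had 43.1, 20.9 and 84.0 CPM against 15.3, 27.4 and 32.4 CPM. Its groups overlapped and its log2 fold change of -0.98 was -0.35 without shNT replicate 3. Sesn2, a leucine sensor that also restrains mTORC1, had a log2 fold change of -0.45 ± 0.34.

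**Figure D2:**
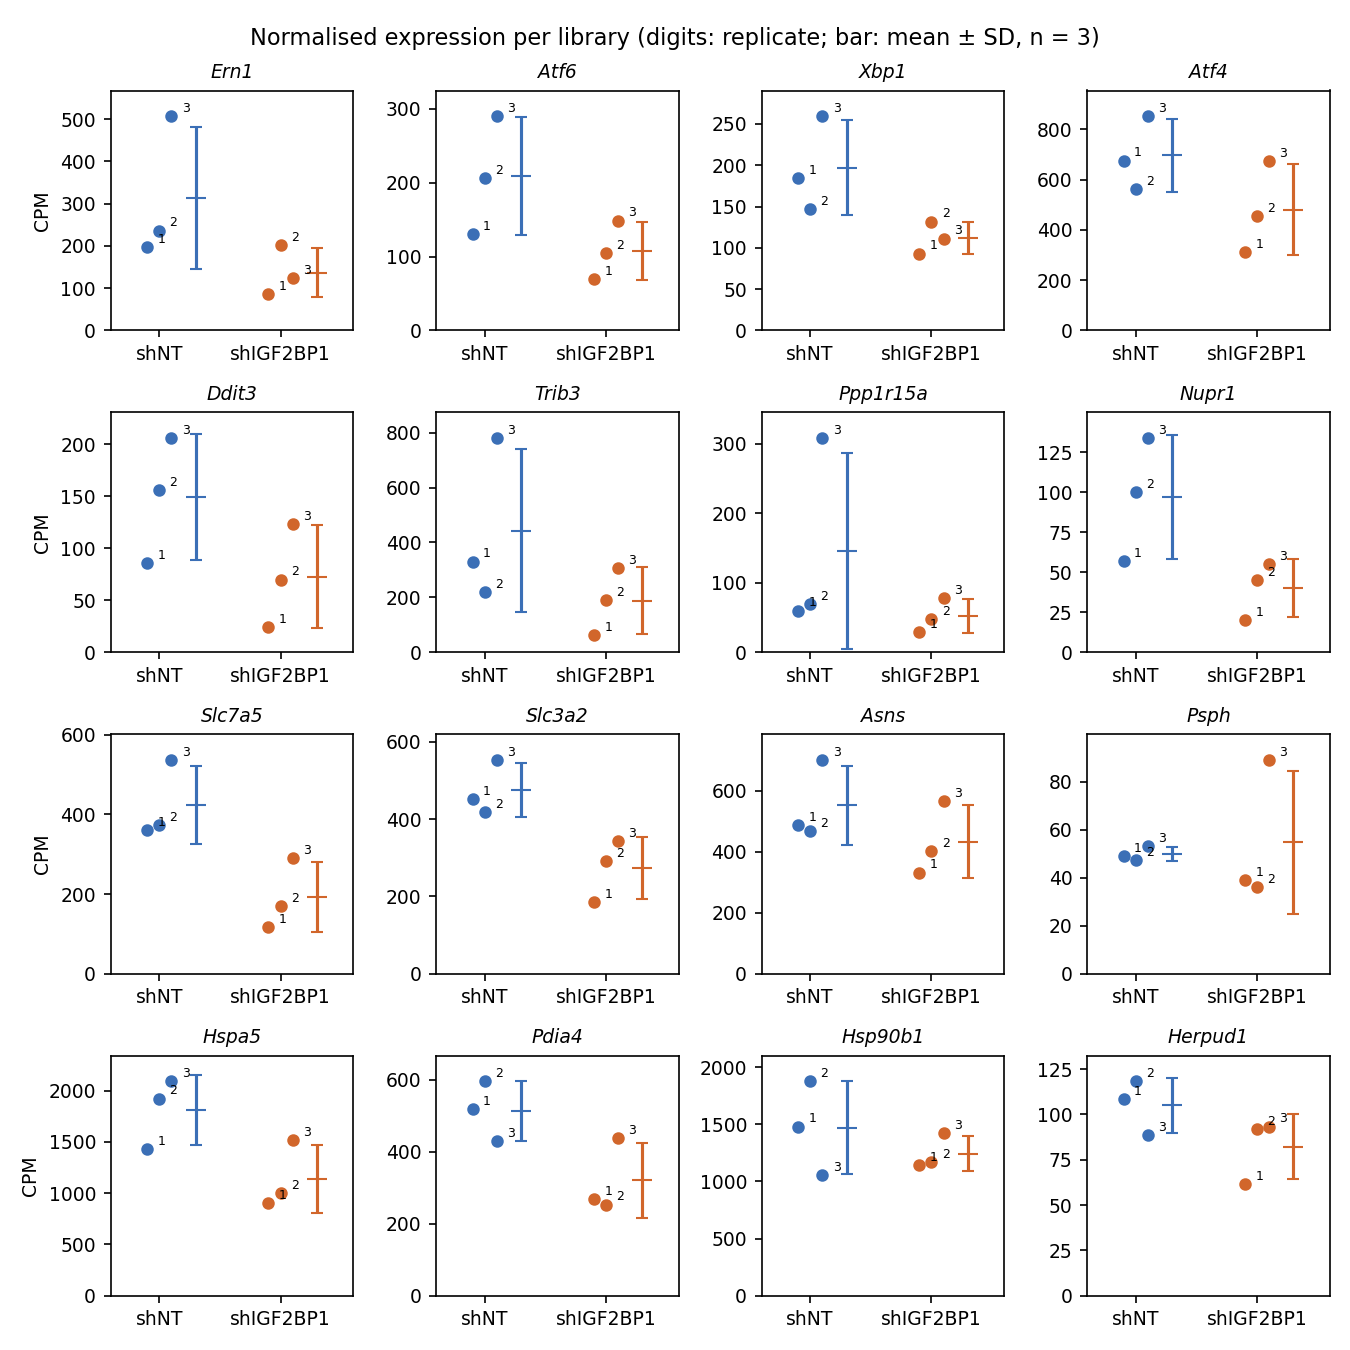
Each panel plots CPM (y axis, linear from 0) of 1 gene in the 3 shNT and the 3 shIGF2BP1 libraries, with digits for the replicate and a bar for mean ± SD (n = 3). The groups do not overlap for Xbp1, Nupr1, Slc7a5 and Slc3a2, while shNT replicate 3 lifts the mean of Trib3 and Ppp1r15a and shIGF2BP1 replicate 3 that of Psph.

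Of the 6 amino acid transporters, 3 (50%) did not overlap between groups and were lower in the libraries labelled shIGF2BP1, against 5.59% of tested genes. Slc7a5 and Slc3a2 encode the light and heavy chains of the same leucine and glutamine exchanger, and had similar levels per length in shNT, 114 and 134 RPKM. Slc7a5 (ENSMUSG00000040010, chr8:121881150-121907694) had 361, 374 and 537 CPM in shNT against 118, 170.1 and 289.8 CPM in the libraries labelled shIGF2BP1. Slc3a2 (ENSMUSG00000010095, chr19:8706882-8723369) had 452, 418 and 553 CPM against 185, 291 and 343 CPM. Neither pair of groups overlapped, and the order of the 3 libraries labelled shIGF2BP1 was alike in both genes, with replicate 1 lowest. The log2 fold changes were -1.14 ± 0.32 for Slc7a5 (edgeR adjusted p = 0.497) and -0.80 ± 0.27 for Slc3a2 (edgeR adjusted p = 0.60), or 2.20-fold and 1.74-fold less. Slc7a1, which imports arginine and lysine, had 387 ± 150.4 CPM in shNT against 211 ± 48.7 CPM in the other group (SD, n = 3 each), again without overlap, and a log2 fold change of -0.87 ± 0.30 (with edgeR adjusted p = 0.606; -0.51 without shNT replicate 3).

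The other 3 transporters overlapped. Slc7a11 (ENSMUSG00000027737, chr3:49892526-50443614), the cystine importer with 2 matches to the Atf4 core, had 14.8, 7.98 and 20.4 CPM in shNT against 8.54, 17.1 and 18.1 CPM in the libraries labelled shIGF2BP1. The ranges coincided, at a low level of 1.03 RPKM in shNT, and the log2 fold change of 0.02 had a 95% interval from -0.83 to 0.87 (edgeR adjusted p = 0.994). Slc38a2, which brings in small neutral amino acids, had 323 ± 38.4 and 312 ± 45.6 CPM (SD, n = 3 each) and a log2 fold change of -0.05, with an interval from -0.52 to 0.42. Slc7a3, an arginine importer, was barely expressed, at 0.611 ± 0.344 and 0.752 ± 0.342 CPM.

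The 8 genes of amino acid synthesis spanned a wide range of levels and had log2 fold changes from -0.60 to 0.14. Per length, Phgdh (230 RPKM in shNT), Asns (202 RPKM), Psat1 (164 RPKM), Shmt2 (146 RPKM) and Aldh18a1 (139 RPKM) were above Slc7a5 and Slc3a2, while Mthfd2 (69.3 RPKM), Pycr1 (46.8 RPKM) and Psph (11.5 RPKM) were below them. Asns (ENSMUSG00000029752, chr6:7675169-7693254), which makes asparagine and is a standard readout of Atf4, had 489, 468 and 702 CPM in shNT against 332, 402 and 566 CPM in the libraries labelled shIGF2BP1. The groups overlapped, and the log2 fold change, -0.59 to -0.14 with a library left out, was -0.35 ± 0.27 (edgeR adjusted p = 0.853). Pycr1 (ENSMUSG00000025140, chr11:120635712-120643769), the last step of proline synthesis, had 256, 136 and 161 CPM against 114, 136 and 114 CPM. Its shNT mean rested on replicate 1, and it was the 1 synthesis gene with an edgeR p under 0.05 before adjustment (log2 fold change -0.60 ± 0.25, edgeR adjusted p = 0.686; -0.29 without that library). Mthfd2 (ENSMUSG00000005667, chr6:83305691-83325908), a mitochondrial folate enzyme, had 206, 243 and 277 CPM against 129, 161 and 266 CPM. Here shIGF2BP1 replicates 1 and 2 lay below all shNT libraries and replicate 3 within them.

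In the serine and glycine branch shIGF2BP1 replicate 3 lay above every shNT library. Psat1, Phgdh, Psph and Shmt2, which lead from glycolysis to serine and glycine, were each highest of all 6 libraries in that replicate. They made up 4 of the 8 synthesis genes (50%), against 12.0% of tested genes highest there. Psph, the phosphatase that ends serine synthesis, is given in full after its values were seen. It had 49.0, 47.4 and 53.2 CPM in shNT against 39.2, 36.1 and 89.1 CPM in the libraries labelled shIGF2BP1, and its exons overlap those of Cct6a on the opposite strand. Its log2 fold change of 0.14 was -0.41 without shIGF2BP1 replicate 3. Without that library the median log2 fold change of the 14 amino acid genes was -0.58 in place of -0.28, and without shIGF2BP1 replicate 1 it was -0.13.

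Among the 9 ER folding genes, 3 had an edgeR p under 0.05 before adjustment, Hspa5, Pdia4 and Dnajc3, and 3 had log2 fold changes near 0. Over all tested genes, 3.99% had such a p with less mRNA in the libraries labelled shIGF2BP1. Hspa5 (ENSMUSG00000026864, chr2:34771970-34777547), the chaperone BiP that also holds the sensors inactive, had the highest level per length of the 43 genes, 429 RPKM in shNT. It had 1431, 1922 and 2089.5 CPM in shNT against 899.6, 997 and 1516 CPM in the libraries labelled shIGF2BP1. Replicate 3 of the latter lay just above the lowest shNT library, and the log2 fold change was -0.67 ± 0.30 (edgeR adjusted p = 0.687). Pdia4 (ENSMUSG00000025823, chr6:47796141-47813430), a disulfide isomerase, had 519, 595 and 429 CPM against 269, 253 and 439 CPM. It overlapped through the same library, with a log2 fold change of -0.68 ± 0.27 (with edgeR adjusted p = 0.682). Dnajc3 (ENSMUSG00000022136, chr14:118937976-118981697), a J-domain co-chaperone of BiP that also inhibits eIF2 kinases, had 99.7, 115 and 103 CPM against 79.5, 77.1 and 79.6 CPM. Its groups did not overlap and were tight, with a log2 fold change of -0.43 ± 0.18 (with edgeR adjusted p = 0.686).

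Dnajb9, the co-chaperone Erdj4, also had groups without overlap, at 27.4 ± 6.75 and 19.6 ± 2.46 CPM (SD, n = 3 each), and a log2 fold change of -0.48 (with edgeR adjusted p = 0.753). Manf, a secreted ER stress protein whose exons overlap Dcaf1 and Rbm15b, had a log2 fold change of -0.36. In contrast, Pdia6, Sdf2l1 and Creld2, a disulfide isomerase, a BiP cofactor and a secreted ER protein, had log2 fold changes of 0.02, 0.02 and 0.06, with intervals that reached no further than -0.57 and 0.61. Hsp90b1, known as Grp94, is given in full after its values were seen. It had 1480.3, 1876 and 1057 CPM in shNT against 1142, 1169 and 1422 CPM in the other group, so that its lowest and its highest library were both shNT (log2 fold change -0.24 ± 0.29, edgeR adjusted p = 0.908). Of the 6 genes with an ERSE, Hspa5, Dnajc3, Hsp90b1, Syvn1, Pdia6 and Creld2, the log2 fold changes thus ran from -0.67 to 0.06.

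The 4 genes of ER-associated degradation differed least. Herpud1 (ENSMUSG00000031770, chr8:94386438-94395377), a membrane component of the degradation complex with promoter elements of both families, had 108, 118 and 88.4 CPM in shNT against 61.7, 91.8 and 93.2 CPM in the libraries labelled shIGF2BP1. The groups overlapped, and the log2 fold change was -0.35 ± 0.22 (edgeR adjusted p = 0.794). Edem1 (ENSMUSG00000030104, chr6:108828641-108859356), a lectin that picks out misfolded glycoproteins, had 134, 127 and 144 CPM against 118, 119 and 129.7 CPM, with a log2 fold change of -0.14 ± 0.18. Syvn1, the ubiquitin ligase Hrd1, and its partner Sel1l had log2 fold changes of -0.10 ± 0.20 and 0.05 ± 0.22 (edgeR adjusted p = 0.95 and 0.978).

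**Figure D3:**
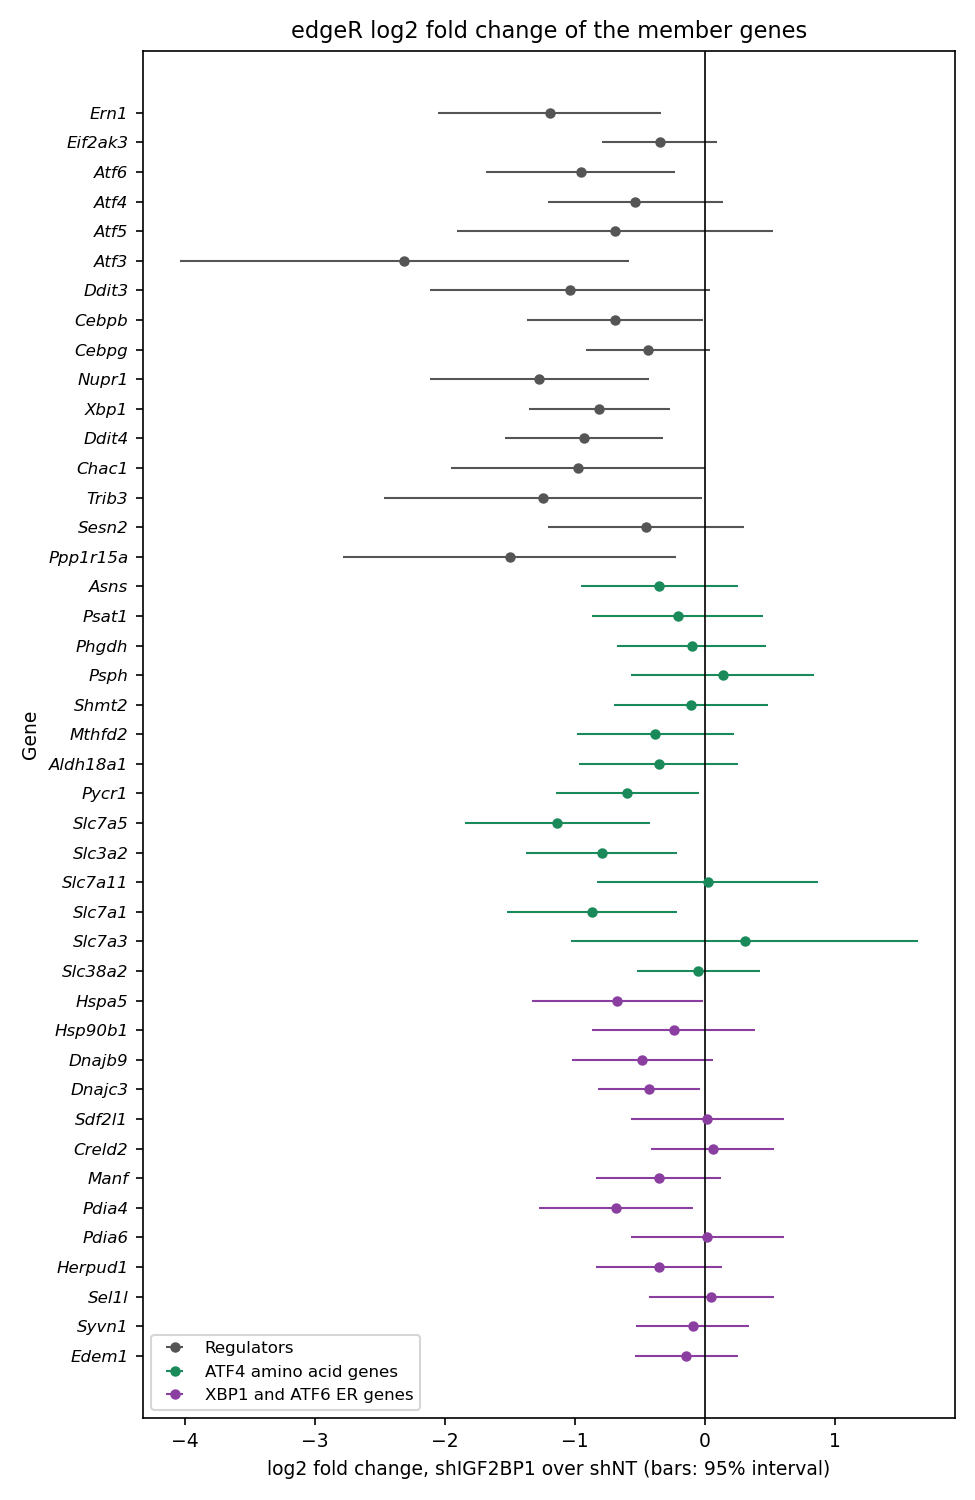
Points give the edgeR log2 fold change, shIGF2BP1 over shNT (x axis), of each of the 43 genes (y axis), with bars for the 95% interval and colours for regulators, Atf4 amino acid genes and Xbp1 and Atf6 ER genes. All 16 regulators lie left of 0, and so do 11 of 14 amino acid genes and 9 of 13 ER genes, most with intervals that include 0. Of all tested genes, 51.5% were below 0.

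Set side by side, the regulators had the largest differences. Their median log2 fold change was -0.95, with 16 of 16 below 0, 10 with an edgeR p under 0.05 before adjustment and 5 without overlap. For the Atf4 amino acid genes the median was -0.28, with 11 of 14 below 0, 4 with such a p and 3 without overlap. For the ER genes it was -0.24, with 9 of 13 below 0, 3 with such a p and 2 without overlap. Over all tested genes, 51.5% were below 0, 3.99% had such a p in that direction and 5.59% did not overlap in that direction. Genes without overlap made up 31.25%, 21.4% and 15.4% of the arms in that order. Under DESeq2 and limma-voom, 9 and 7 regulators had an unadjusted p under 0.05. The amino acid genes had 4 and 4, and the ER genes 3 and 3. The differences between these arms were not tested. Without shNT replicate 3 the median was -0.55 for the regulators, -0.19 for the amino acid genes and -0.43 for the ER genes, with 13 of 13 ER genes below 0. The amino acid and ER genes, close together with all libraries, were then farther apart.

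The arms ranked the libraries differently. In each library the median over genes of log2 CPM minus the gene mean was taken. For the regulators it was 0.18, 0.02 and 0.93 in shNT replicates 1 to 3 and -1.01, -0.25 and -0.03 in shIGF2BP1 replicates 1 to 3, so the groups were separated only narrowly and each had 1 extreme library. Of the 16 regulators, 13 were highest in shNT replicate 3 (81.2%, against 24.5% of tested genes) and 13 lowest in shIGF2BP1 replicate 1 (81.2%, against 12.0%). For the transporters the medians were 0.16, 0.10 and 0.63 against -0.74, -0.04 and -0.09, in the same pattern. For amino acid synthesis they were 0.04, 0.07 and 0.11 against -0.37, -0.38 and 0.38, with the highest value in a library labelled shIGF2BP1. For ER folding they were 0.15, 0.24 and 0.00 against -0.20, -0.24 and 0.14, so shNT replicate 3, the extreme library of the regulators, was the lowest of its group. Of the 13 ER genes, 5 were lowest of all in shNT replicate 3 (38.5%, against 23.6% of tested genes). Another 2 were highest there (15.4%, against 24.5%).

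**Figure D4:**
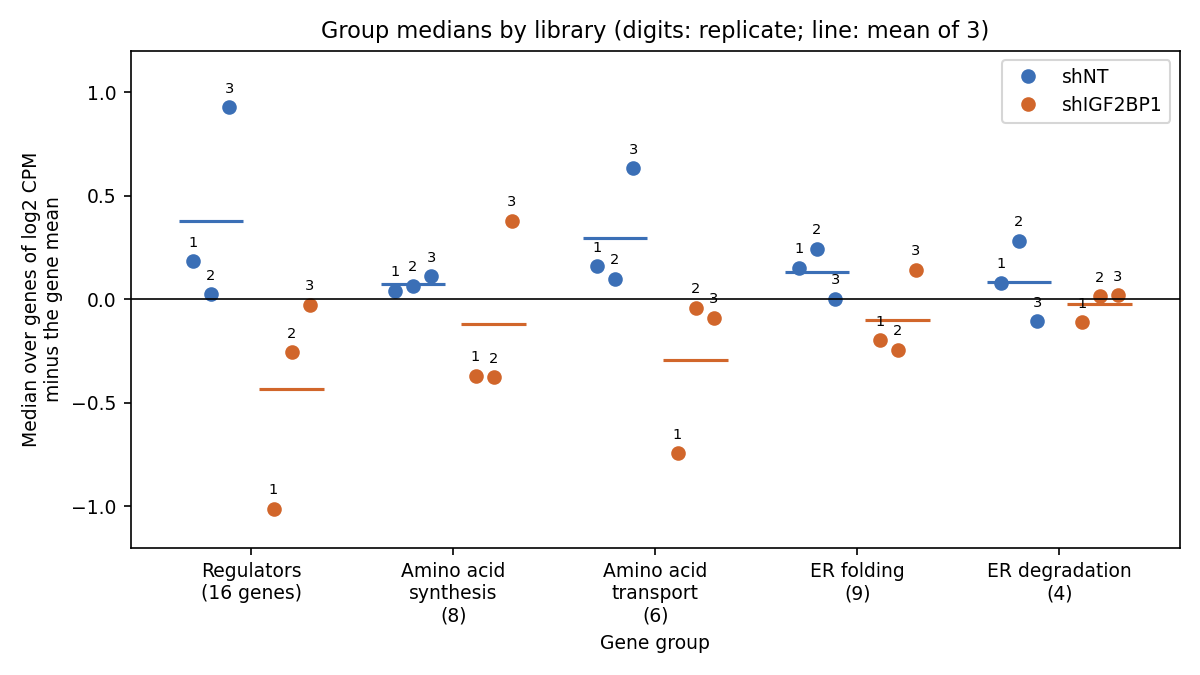
Points give, for each library (digits for the replicate, colours for the group), the median over the genes of a role of log2 CPM minus the gene mean (y axis), with a line at the mean of the 3 libraries. shNT replicate 3 and shIGF2BP1 replicate 1 are extreme for regulators and transporters, and shIGF2BP1 replicate 3 is the highest library for amino acid synthesis.

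Of the genes in 7 further lists of the same pathways, edgeR called 0 (smallest edgeR adjusted p = 0.60 for Aldh1l2). Over all tested genes, 51.5% of log2 fold changes were below 0. Groups did not overlap in 5.59% of tested genes with less mRNA in the libraries labelled shIGF2BP1 and in 6.06% with more. The aminoacyl-tRNA synthetases, many of them Atf4 targets, had 13 of 13 log2 fold changes below 0 with a median of -0.27. Their library medians were -0.11, 0.10 and 0.43 in shNT against -0.45, -0.25 and 0.24. Sars, the seryl-tRNA synthetase, was the 1 synthetase without overlap between groups, at 937 ± 132 and 624 ± 137 CPM (mean ± SD of 3), and its log2 fold change was -0.59 (edgeR adjusted p = 0.687). The synthetases Iars and Eprs had log2 fold changes of -0.46 and -0.35. Of 13 tested further Atf4 targets, 10 were below 0, led by the folate enzyme Aldh1l2 (-0.81) and the transaminases Gpt2 (-0.61) and Got1 (-0.63). Stc2, Gdf15, Fgf21 and Cbs had too few counts to be tested.

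The eIF2 list held the eIF2 kinases other than Perk, Eif2s1 of eIF2 itself, the subunits of the exchange factor eIF2B, and Ppp1r15b. It had 4 of 10 log2 fold changes below 0 and a median of 0.05. Perk (gene Eif2ak3), counted among the regulators above, had a log2 fold change of -0.35. Eif2b3 and Eif2b4 had more mRNA in all libraries labelled shIGF2BP1 than in any shNT library (2 of 10, against 6.06% of tested genes). Their log2 fold changes were 0.45 and 0.32 (edgeR adjusted p = 0.705 and 0.82). Ppp1r15b, the constitutive counterpart of Gadd34, had a log2 fold change of -0.23. Among 16 other ER folding genes, 14 (87.5%) were below 0 with a median of -0.23, against 51.5% of tested genes below 0. In 5 (31.25%) the groups did not overlap, all with less mRNA in the libraries labelled shIGF2BP1, against 5.59% of tested genes. They included Hyou1, the BiP exchange factor Grp170, at 530.4 ± 24.1 and 349 ± 86.4 CPM (mean ± SD of 3; its log2 fold change was -0.61, edgeR adjusted p = 0.684). Txndc11 (-0.47) was another of the 5, while the oxidase Ero1l (-0.77) did overlap. Of 12 tested degradation genes 10 were below 0, with Derl2, a channel component, at -0.48 and Edem3 at -0.44. The segregase Vcp went the other way without overlap, at 306 ± 35.1 and 457 ± 79.9 CPM (a log2 difference of 0.58, edgeR adjusted p = 0.681). Of these 12 genes, 2 did not overlap with more mRNA in the libraries labelled shIGF2BP1, against 6.06% of tested genes. With less mRNA there it was 1 (8.33%), against 5.59%. Of 19 genes of translocation into the ER and export from it, 16 were below 0 with a median of -0.18. Among them were Ssr4 (-0.39), Sec61a1 (-0.37) and the export gene Sec24d (-0.34). In 1 (5.26%) the groups did not overlap, near the share of all tested genes. The largest value of that list was upward, 1.28 for Srp54a, which had at most 0.686 CPM in any library and overlapped between groups (edgeR adjusted p = 0.836). It is named after its values were seen. Of 6 tested other sensors and processing proteases 5 were below 0, with Creb3l2, an Atf6-like factor, at -0.59, Wfs1 at -0.62 and Mbtps2, which cuts Atf6, at -0.16. In 2 of the 6 (33.3%) the groups did not overlap, with less mRNA in the libraries labelled shIGF2BP1, against 5.59% of tested genes.

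Genes that share a promoter element with the members were set beside them. The 8 members with the Atf4 core had a median log2 fold change of -0.79, with 7 below 0. The 253 other tested genes with the core had a median of -0.07 and 143 below 0. The members were chosen with earlier results of these data known. The difference therefore describes them and is no independent support for a role of the element. With all libraries, Atf3, Chac1, Nupr1 and Trib3 were at -2.31, -0.98, -1.27 and -1.25. Without shNT replicate 3 these genes were at -0.54, -0.35, -0.97 and -0.56. Asns, Pycr1, Slc7a11 and Herpud1 were at -0.35, -0.60, 0.02 and -0.35 with all libraries. The 6 members with the ERSE had a median of -0.17, and 11 other tested genes with it one of -0.02. For the ERSE-II, held by Herpud1 alone of the members, 7 other tested genes had a median of -0.40 and 6 below 0. The 97 tested genes with TGACGTGG, none of them a member, had a median of -0.09 and 59 below 0. All 9519 tested genes with a promoter window had a median of -0.02 and 4957 below 0.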

How the data were processed

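The authors deposited 1 table of raw counts of reads over genes, without normalisation, whose columns were joined to samples by library name. Per the submitters' processing notes, bcl2fastq, HISAT2 2.1.0, HTSeq and the build GRCm38 were used; the annotation release, strand setting and read filters were not given in the sources used here. Overlapping genes are therefore uncertain, and 12 of the 43 genes share exon bases with another gene. Per the labels' protocols, libraries were made with a stranded poly-A kit.

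Symbols, coordinates and exon lengths came from GENCODE M21 (GRCm38), which matched 42548 of 43629 IDs. The 92 spike-in rows held 0 counts. Counts were scaled by TMM and tested with edgeR 4.0.16 (quasi-likelihood F test, robust, two-sided) in R 4.3.3 over the 13445 genes kept by filterByExpr (minimum count 10, total 15), with Benjamini-Hochberg adjustment over all of them and a threshold of 0.05. CPM used TMM factors, RPKM also the merged length of all annotated exons of a gene, and log2 CPM a prior count of 2. The SE was the log2 fold change divided by the root of F. A count of 3, the limit that 0 counts allow, was 0.0850 to 0.114 CPM, for counting error only. No 2 libraries agreed within sampling noise (chi-square per gene 46.8 to 251). Between shNT libraries the value was 162, 166 and 251, and between libraries labelled shIGF2BP1 it was 46.8, 72.8 and 128. Across groups it ran from 82.8 (shNT replicate 2, shIGF2BP1 replicate 3) to 227 (shNT replicate 3, shIGF2BP1 replicate 2). By this measure shNT replicates 1 and 2 were each closer to every library labelled shIGF2BP1 than to any other shNT library.

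The members and lists were chosen with earlier results of these data known. By rule, values per library were given for 13 fixed members and the 2 with the smallest p in each role, and 3 genes were named from each other list. Alternatives were RLE factors, library size only, no filter, mean CPM 5, a replicate block, leaving out each library, DESeq2 1.42.0, limma-voom (limma 3.58.1) and a threshold of 0.01. On simulated data of 13445 genes with 200 changed, edgeR recovered 28.6% of 2-fold, 75.9% of 4-fold and 96.8% of 16-fold changes, with 10 false of 135 calls. The simulation drew each gene on its own and had no library that was extreme for many genes at once. These rates may therefore not hold for the real libraries.

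Some marker genes are not reported here.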

Additional observations from a re-analysis of the deposited data

How the results depend on the processing

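Of the 43 genes, 0 were called under RLE factors, library size only, mean CPM 5, DESeq2, limma-voom, a threshold of 0.01 or with any library left out. Without a filter 4 were called (Ern1, Atf6, Ddit4 and Slc7a5, edgeR adjusted p = 0.0395, 0.0337, 0.0272 and 0.00882) and with the replicate block 1 (Nupr1, edgeR adjusted p = 0.0448). The count of members with less mRNA and an unadjusted p under 0.05, 17 in the analysis reported, was 11 with library size only and 6 to 19 with a library left out. Over all genes, 3 calls became 82 with DESeq2, 138 without a filter, 18 with the replicate block, 1 for limma-voom, a threshold of 0.01 or mean CPM 5, and 1 to 5 with a library left out. The median log2 fold change stayed below 0 for the whole list (-0.56 to -0.35 with a library left out), the regulators (-1.17 to -0.55), the amino acid genes (-0.58 to -0.13) and the ER genes (-0.43 to -0.18). Deviations from the group means correlated at 0.19, -0.09 and 0.28 between same-numbered libraries, so the numbers were not taken as pairs.

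With library size only Slc38a2 turned to 0.032, and Sdf2l1 turned to -0.0092 with limma-voom and -0.0038 with the replicate block. Igf2bp1 was -0.24 with limma-voom, -0.047 with the replicate block and -1.24 to 0.76 with a library left out. The ranges of the 11 members whose sign turned with a library left out were -1.08 to 0.48 for Atf5, -0.38 to 0.025 for Phgdh, -0.41 to 0.38 for Psph, -0.44 to 0.076 for Shmt2, -0.27 to 0.36 for Slc7a11, -0.11 to 0.84 for Slc7a3, -0.16 to 0.043 for Slc38a2, -0.25 to 0.17 for Sdf2l1, -0.078 to 0.17 for Creld2, -0.18 to 0.16 for Pdia6 and -0.066 to 0.27 for Sel1l. The causes were not tested.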
